A study of Homo sapiens with 12 samples.

Results

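The 39 genes described here encode the enzymes that charge tRNAs, the aminoacyl-tRNA synthetases, together with 3 scaffold proteins that hold several of them in 1 complex. The rule that picks and sorts them uses gene names alone, although the set was proposed with results of these data known. A symbol ending in 2 put a gene among the 16 mitochondrial synthetases, every other synthetase of the list was taken as cytosolic or dual (20 genes), and AIMP1, AIMP2 and EEF1E1 are the scaffold subunits (3 genes). All 39 were found among the 17303 genes of the deposited table, and all 39 passed the expression filter that left 12868 genes to test.

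An aminoacyl-tRNA synthetase joins 1 amino acid to its tRNAs, which carry it to the ribosome. Human cells use separate nuclear genes for most of the enzymes that work in the cytosol and for those that are imported into mitochondria, where they serve the translation of the mitochondrial genome. GARS1 and KARS1 make both forms from 1 gene, and EPRS1 joins the glutamate and proline enzymes in 1 protein. Several cytosolic synthetase genes are known targets of ATF4, the transcription factor of the amino acid response.

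The samples were bulk poly(A) RNA-seq libraries of SNU638, a human cell line established from gastric cancer. Stable lines had been made with lentivirus and puromycin, and every line, the control included, had been through both. The control line (genotype given as wt) carried a control hairpin, sh-control, and 3 knockdown lines carried the hairpins sh-SKA2-1, sh-SKA2-2 and sh-SKA2-3, called hairpin 1, 2 and 3 here, against SKA2, which encodes part of the complex that ties kinetochores to spindle microtubules. There were 3 libraries per line and 12 in all, and each hairpin was 1 stable line. Whether the 3 libraries of 1 line came from separate cultures is not stated, and p-values therefore reflect the spread among these libraries alone, which could be technical.

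Library totals ran from 14693323 to 16739147 counts. SKA2 was at 117 to 126 CPM (counts scaled to library size, after TMM adjustment) in the control libraries and at 22.3 to 28.0 CPM in all 9 knockdown libraries. Of the 8 epithelial markers, KRT8, KRT18, KRT19 and EPCAM were abundant, whereas CDH1 and CLDN4 were near 0. The epithelial markers summed to 3377 to 3766 TPM (scaled to transcript length and library) in the control; with hairpins 1, 2 and 3 the range was 3210 to 3346, 1639 to 1752 and 2848 to 3172 TPM. The 6 leukocyte markers, nearly all CD68, summed to 25.13 to 26.82, 27.67 to 30.76, 14.64 to 18.49 and 25.19 to 27.63 TPM in the same order. The 6 fibroblast markers stayed at or under 2.94 TPM and the 5 endothelial ones at or under 0.3 TPM, and no marker in the table was at 0 in all 12 libraries. The part of these marker differences in the results was not tested. The libraries also differed in how their counts followed transcript length. The slope of a library's log2 CPM deviations on log2 length was -0.0561, -0.243 and -0.324 in the control, 0.0833 to 0.108 with hairpin 1, 0.152 to 0.206 with hairpin 2, and 0.0924, -0.122 and -0.171 with hairpin 3. Control library 1 and hairpin 3 library 1 stood apart from their own group in this, and the slopes of the control and of hairpins 1 and 2 did not overlap.

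Part of the cytosolic set shares a short promoter sequence, shown first because these genes recur among the falls below. The 8-base motif TGATGNAA, the core of the composite element that C/EBP and ATF4 dimers bind, was searched on both strands of RefSeq promoter windows of 300 bases (250 before and 50 after each transcription start, GRCh38.p14). A window was found for 33 members; LARS1, VARS1, YARS1, TARS3, AARS2 and VARS2 had none. The motif was present for 7 of 16 cytosolic or dual genes (43.8%), for 1 of 14 mitochondrial genes (7.14%) and for 0 of 3 scaffold genes, against 2.85% of the 10400 tested genes with a window and 3.62% of all 35116 windows. The 8 matches are printed in the sense of the gene with 11 bases on each side and the motif in capitals; TTGCATCA and TTTCATCA are the motif read from the other strand.
AARS1, chr16:70289675-70289704, minus strand: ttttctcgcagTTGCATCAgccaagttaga
CARS1, chr11:3057407-3057436, minus strand: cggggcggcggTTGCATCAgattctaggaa
GARS1, chr7:30594834-30594863, plus strand: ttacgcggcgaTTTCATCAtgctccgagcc
IARS1, chr9:92293692-92293721, minus strand: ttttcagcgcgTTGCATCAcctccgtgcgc
MARS1, chr12:57488053-57488082, plus strand: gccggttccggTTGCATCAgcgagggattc
NARS1, chr18:57621804-57621833, minus strand: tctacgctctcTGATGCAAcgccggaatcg
TARS1, chr5:33440956-33440985, plus strand: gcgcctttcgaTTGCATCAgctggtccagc
YARS2, chr12:32756076-32756105, minus strand: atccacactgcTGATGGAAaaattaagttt
The AARS1 match began 187 bases and the YARS2 match 197 bases before the start used, and the other matches lay between 33 bases before and 22 bases after it. The matches of CARS1, GARS1 and TARS1 were each in only 1 of the 2 windows of the gene. Counted by window, the motif was in 7 of 21 cytosolic or dual windows (33.3%) and 1 of 18 mitochondrial windows (5.56%). Of the windows of all tested genes 2.07% held it. A match describes these letters and shows no bound site. Among the cytosolic genes with a window, the median log2 fold change of the mean of the hairpins was -0.90 for the 7 with the motif and -0.37 for the 9 without it. Over the 10400 tested genes with a window it was 0.02 with and 0.01 without the motif. SARS1 and WARS1, which fell at least 2-fold, had windows without the motif.

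In the knockdown lines the cytosolic synthetase genes were mostly lower than in the control, and the mitochondrial ones had smaller changes by their median. The mean of the 3 hairpins against the control was called (edgeR's quasi-likelihood test, Benjamini-Hochberg adjusted p under 0.05) lower for 17 and higher for 3 of the 20 cytosolic genes, where 35.8% of all tested genes were lower and 33.7% higher. The median log2 fold change of the cytosolic class was -0.63. Of the 16 mitochondrial genes 10 were lower and 1 was higher, with a median of -0.22, and all 3 scaffold genes were lower, with a median of -0.71. The median of all tested genes lay near 0 on this scale. The mitochondrial count depended on how length and scale were handled: with the length slope added as a covariate 5 were lower, of which YARS2 alone was among the 10, and on the log2(TPM + 1) scale, which moved the median of all genes by 0.25, 2 of the 10 kept their call. The cytosolic counts were 13 and 12 under the same changes, all of them among the 17. The shares of all genes called lower were then 26.1% and 18%. In bulk RNA, fewer cells that express a gene and less RNA per cell cannot be told apart.

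**Figure D1:**
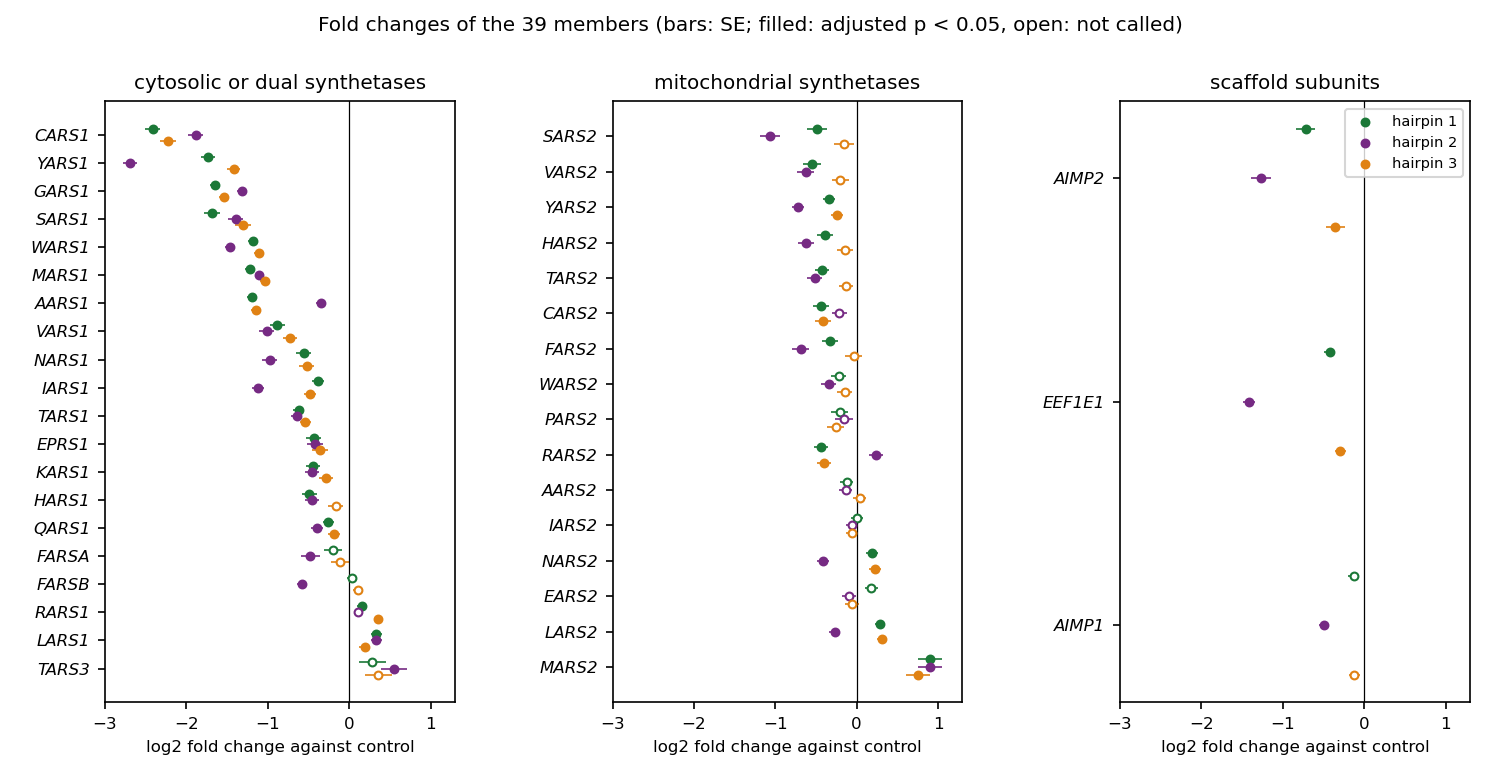
Log2 fold change of each of the 39 members with hairpin 1, 2 and 3 against the control (x axis), in 1 panel per class with genes on the y axis. Points are estimates from 3 libraries per group, bars are standard errors, and filled points had an adjusted p under 0.05. Cytosolic genes reach -2.70 (YARS1 with hairpin 2), while the mitochondrial points lie between -1.07 (SARS2) and 0.90 (MARS2).

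For the cytosolic genes the same direction was seen with each hairpin taken alone, although the comparisons share the 3 control libraries and are not independent of each other. With hairpin 1, 15 cytosolic genes were lower and 2 higher, beside 31.5% of all tested genes in each direction. With hairpin 2 the counts were 17 and 2, beside 37.8% lower and 36.6% higher, and with hairpin 3 they were 14 and 2, beside 24% and 23.6%. The cytosolic medians were -0.53, -0.61 and -0.50. Of the mitochondrial genes 8, 9 and 3 were lower and 3, 2 and 3 higher, with medians of -0.27, -0.31 and -0.14. The mitochondrial counts moved with the processing. With the length covariate 3 were lower with hairpin 1, of which 1 was among the 8, beside 21.1% of all genes. On the log2(TPM + 1) scale 1 was lower with hairpin 1, 5 with hairpin 2 and 1 with hairpin 3. The shares of all genes called lower on that scale were 13.5%, 20.9% and 16.1%. The count of 3 with hairpin 3 became 6 without control library 1, beside 27.8% of all genes, and 5 with the length covariate (29.7%) or without both libraries that stood apart (28.7%). Same-numbered control and hairpin 3 libraries deviated together, as did some of different number, so whether the numbers mark pairs is not known. A fit of these 6 libraries alone with the replicate number as a block gave 16 cytosolic and 8 mitochondrial genes lower, beside 34.7% of all genes. That fit has 2 residual degrees of freedom. It added FARSA, HARS1, HARS2, PARS2, SARS2, TARS2 and VARS2 to the synthetases called lower with hairpin 3, and AIMP1 to the scaffold subunits.

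A call in the same direction with all 3 hairpins was made for 14 cytosolic genes on the lower side, where 15% of all tested genes met that rule. They were AARS1, CARS1, EPRS1, GARS1, IARS1, KARS1, MARS1, NARS1, QARS1, SARS1, TARS1, VARS1, WARS1 and YARS1. QARS1 and AARS1 were the least settled of these: the hairpin 3 call of QARS1 (edgeR's adjusted p = 0.0481) was lost with a replicate block over all 12 libraries, and QARS1 with hairpins 1 and 2 and AARS1 with hairpin 2 were above the control on the log2(TPM + 1) scale. The median of all tested genes was itself above the control on that scale, by 0.29 with hairpin 1 and 0.33 with hairpin 2. LARS1 was the 1 cytosolic gene higher with all 3, a rule that 13.9% of all genes met. Among the mitochondrial genes only YARS2 was lower and only MARS2 higher with all 3. All 9 knockdown libraries lay below all 3 control libraries for 13 cytosolic genes (the 14 above without QARS1), against 14.9% of all tested genes, and for YARS2 alone among the mitochondrial ones. They lay above all 3 for LARS1, RARS1 and MARS2, against 12.5% of all genes. A fall of at least 2-fold in the mean of the hairpins was called for 6 cytosolic genes, CARS1, GARS1, MARS1, SARS1, WARS1 and YARS1, and for no mitochondrial gene, beside 5.32% of all genes. No member rose by as much, a rise called for 6.77% of all genes.

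CARS1, the cysteine enzyme (chr11:3000922-3057613, minus strand, GRCh38 with GENCODE v29), had the largest change of any member in the mean of the hairpins. Its control libraries held 391, 440 and 484 CPM. The knockdown libraries held 79.2, 82.0 and 85.4 CPM with hairpin 1, 123, 114 and 118 with hairpin 2, and 82.8, 97.1 and 102 with hairpin 3. Every knockdown library was far below every control library, and the log2 fold change of the mean was -2.18 ± 0.07 (SE, edgeR's quasi-likelihood test, adjusted p = 3.98e-10). YARS1, the tyrosine enzyme (chr1:32775237-32818153, minus strand), held 480, 524 and 558 CPM in the control. It held 153, 158 and 158 CPM with hairpin 1, 83, 79.0 and 78.9 with hairpin 2, and 172, 200 and 211 with hairpin 3. The groups were apart, hairpin 2 was lowest, and the log2 fold changes were -1.74, -2.70 and -1.42 for the 3 hairpins (adjusted p at most 1.53e-07).

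GARS1, the glycine enzyme of cytosol and mitochondria (chr7:30594681-30634033, plus strand), held 605, 642 and 644 CPM in the control. With the hairpins it held 202, 198 and 201, then 258, 251 and 249, then 203, 213 and 235 CPM. It was the most abundant member in the control and fell by 1.5 ± 0.05 (SE) on the log2 scale in the mean (adjusted p = 4.18e-10). SARS1, the serine enzyme (chr1:109213918-109238169, plus strand), held 414, 466 and 516 CPM in the control. Its knockdown values were 142, 142 and 149 CPM, 186, 175 and 169 CPM, and 167, 192 and 206 CPM. No groups of control and knockdown overlapped, and the mean log2 fold change was -1.46 ± 0.07 (SE, adjusted p = 1.6e-08).

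WARS1, the tryptophan enzyme (chr14:100333788-100376805, minus strand), was steady within groups. It held 220, 224 and 228 CPM in the control, 96.9, 101 and 96.6 with hairpin 1, 81.4, 80.4 and 81.5 with hairpin 2, and 99.1, 108 and 104 with hairpin 3. All knockdown libraries were below the control, with a mean log2 fold change of -1.25 ± 0.04 (SE, adjusted p = 7.14e-10). MARS1, the methionine enzyme (chr12:57475445-57517569, plus strand), held 277, 274 and 265 CPM in the control and between 116 and 136 CPM in the 9 knockdown libraries. Its log2 fold changes of -1.22, -1.10 and -1.04 lay close together. MARS1 shares 355 of its 7028 exonic bases with DDIT3 on the opposite strand, and no strand marking is named in the protocol, so the reads of both genes in those bases cannot be told apart. DDIT3 also fell by 1.72 on the log2 scale.

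AARS1, the alanine enzyme (chr16:70252295-70289543, minus strand), split the hairpins. It held 541, 568 and 596 CPM in the control, 239, 250 and 256 with hairpin 1, and 245, 257 and 265 with hairpin 3. With hairpin 2 it held 460, 447 and 431 CPM, below the control but far above the other knockdown libraries. The log2 fold changes were -1.19, -0.35 and -1.15, and hairpin 2 exceeded hairpin 1 by 0.84 ± 0.06 (SE, edgeR's quasi-likelihood test, adjusted p = 4.51e-07). The hairpin 2 difference from the control was 0.09 on the log2(TPM + 1) scale, where the median of all tested genes was 0.33. VARS1, the valine enzyme (chr6:31777518-31795953, minus strand), held 327, 377 and 406 CPM in the control. Its knockdown libraries ranged from 183 to 242 CPM with no overlap, and the mean log2 fold change was -0.87 ± 0.07 (SE, adjusted p = 1.26e-06).

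**Figure D2:**
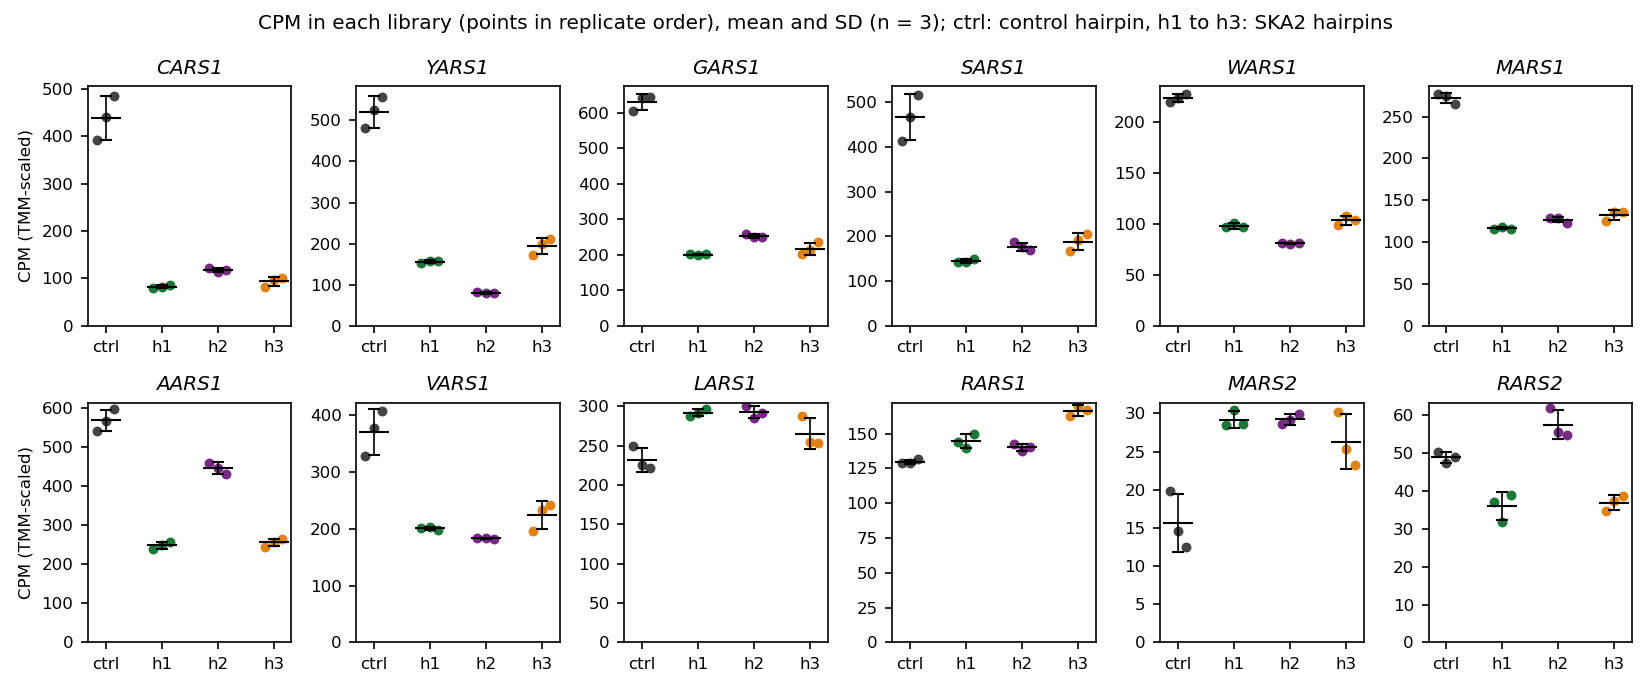
TMM-scaled CPM (y axis, from 0, its own scale per panel) of 12 members in each library, with the control and the 3 SKA2 hairpins on the x axis. Points are libraries, long lines are means and bars are SDs over 3 libraries. CARS1 to VARS1 lie lower in every knockdown library, LARS1, RARS1 and MARS2 lie higher, and RARS2 is higher with hairpin 2 only.

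The next falls were smaller. NARS1, IARS1 and TARS1, the asparagine, isoleucine and threonine enzymes, changed by -0.69, -0.66 and -0.60 in the mean, and IARS1 reached -1.12 with hairpin 2. EPRS1, KARS1 (the lysine enzyme) and HARS1 (the histidine enzyme) changed by -0.41, -0.40 and -0.37. HARS1 was not called with hairpin 3 over all 12 libraries (-0.17, edgeR's adjusted p = 0.137). The calls of KARS1 and HARS1 were lost with the length covariate and on the log2(TPM + 1) scale.

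A few cytosolic genes stayed near the control. QARS1, the glutamine enzyme, held 264, 288 and 303 CPM in the control, and 241, 233 and 243, then 226, 212 and 212, then 231, 256 and 266 CPM with the hairpins. Hairpin 3 library 3 exceeded control library 1 but not its same-numbered control, and the mean change of -0.28 became 0.048 on the log2(TPM + 1) scale. FARSA, the alpha subunit of the phenylalanine enzyme, held 119, 138 and 151 CPM in the control and ranged from 92.9 to 144 CPM in the knockdown libraries, with overlap. Over all 12 libraries it was called with hairpin 2 alone among the hairpins (-0.48, edgeR's adjusted p = 0.00232), where the length covariate gave 0.079. FARSB, the beta subunit, held 111, 113 and 114 CPM in the control, 108, 119 and 119 with hairpin 1, and 125, 119 and 119 with hairpin 3. With hairpin 2 it held 76.3, 73.2 and 76.7 CPM, a separate and lower group (-0.58, edgeR's adjusted p = 6e-06).

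RARS1 and LARS1, the arginine and leucine enzymes, went the other way. RARS1 held 129, 129 and 132 CPM in the control, 144, 140 and 150 with hairpin 1, 143, 138 and 140 with hairpin 2, and 163, 170 and 167 with hairpin 3. All knockdown libraries were above the control, and the mean rise was 0.21 ± 0.04 (SE, edgeR's adjusted p = 0.00146). LARS1 held 249, 226 and 221 CPM in the control and 253 to 301 CPM in the 9 knockdown libraries, just clear of control library 1. Its mean log2 fold change of 0.29 (edgeR's adjusted p = 0.00096) lost its call with the length covariate. TARS3, a further threonine enzyme, was the rarest member, with 92 to 173 counts per library, and was 0.40 higher in the mean (edgeR's adjusted p = 0.0209). That call was lost without control library 1, without control library 2 and with the length covariate.

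The synthetases fall into 2 structural families, class I and class II, by the fold of the catalytic domain. Beside 35.8% of all tested genes lower and 33.7% higher, of the 19 class I synthetases 13 were lower and 3 higher in the mean of the hairpins (median -0.35), and of the 17 class II synthetases 14 were lower and 1 higher (median -0.37). The multisynthetase complex, in which several synthetases are bound together by AIMP1, AIMP2 and EEF1E1, had 8 of its 10 listed members lower and 2 higher, with a median of -0.40.

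The scaffold subunits were lowest with hairpin 2. AIMP2 held 41.9, 48.8 and 52.9 CPM in the control, 32.0, 28.3 and 27.0 with hairpin 1, 20.7, 19.6 and 19.5 with hairpin 2, and 31.4, 38.2 and 42.4 with hairpin 3. Hairpin 3 library 3 overlapped the control, although each hairpin 3 library was below the control library of the same number (log2 fold changes of -0.72, -1.26 and -0.36). AIMP2 shares 532 of 1838 exonic bases with EIF2AK1 on the opposite strand. EEF1E1 held 64.7, 69.2 and 70.2 CPM in the control, 49.5, 51.3 and 51.4 with hairpin 1, 26, 24.4 and 26 with hairpin 2, and 52.0, 54.7 and 59.7 with hairpin 3. Its groups were all below the control, hairpin 2 far below, with log2 fold changes of -0.42, -1.42 and -0.29. AIMP1 held 74.0, 83.8 and 77.2 CPM in the control, and 53.8, 55.5 and 58.1 with hairpin 2, against 70.1 to 72.8 with hairpin 1 and 71.7 to 72.6 with hairpin 3. Over all 12 libraries only its hairpin 2 change was called (-0.49, edgeR's adjusted p = 2.93e-05). Scaffold genes called lower numbered 2, 3 and 2 of 3 with hairpins 1, 2 and 3.

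Among the mitochondrial genes MARS2, the mitochondrial methionine enzyme (chr2:197705369-197708387, plus strand), had the largest change in the mean of the hairpins, and it was a rise. Its control libraries held 19.9, 14.5 and 12.5 CPM. The knockdown libraries held 28.5, 30.5 and 28.6 with hairpin 1, 28.6, 29.1 and 29.99 with hairpin 2, and 30.2, 25.4 and 23.3 CPM with hairpin 3. No knockdown library fell to the control range, and the mean log2 fold change was 0.85 ± 0.13 (SE, edgeR's quasi-likelihood test, adjusted p = 0.000119). Control library 1 and hairpin 3 library 1, which stood apart in length slope, were the highest of their groups. The rise was called under every alternative tried, with values from 0.36 to 1.10.

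SARS2, the mitochondrial serine enzyme, held 31.0, 35.5 and 39.2 CPM in the control, 26, 24.8 and 24.8 with hairpin 1, 17.8, 17.2 and 15.4 with hairpin 2, and 25.7, 33.7 and 35.7 with hairpin 3. Hairpins 1 and 2 were below the control. Hairpin 3 overlapped it, and each of its libraries was below the control library of the same number, with log2 fold changes of -0.48, -1.07 and -0.15. VARS2 held 89.3, 101 and 111 CPM in the control, 62.3 to 75.3 with hairpins 1 and 2, and 75.7, 89.8 and 96.5 with hairpin 3. The same held, with -0.55, -0.63 and -0.20, and the calls of SARS2 and VARS2 in the mean were lost with the length covariate. VARS2 shares 1858 of its 8448 exonic bases with GTF2H4 on the same strand. SARS2 shares 1492 of its 3231 exonic bases with the annotated gene AC011455.2 on the same strand, and 349 with MRPS12 on the opposite strand. YARS2, the mitochondrial tyrosine enzyme, held 50.7, 56.8 and 53.5 CPM in the control, 41.8, 44.6 and 40.7 with hairpin 1, 32.0, 32.5 and 32.8 with hairpin 2, and 41.9, 47.1 and 47.0 with hairpin 3. All its knockdown libraries were lower, by 0.44 ± 0.06 (SE) on the log2 scale in the mean (edgeR's adjusted p = 5.78e-05). On the log2(TPM + 1) scale that call was lost.

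HARS2 held 57.2, 70.1 and 76.5 CPM in the control, and 50.8 to 52.8, 41.8 to 45.7 and 57.4 to 65.3 CPM with the 3 hairpins in order. TARS2 held 64.4, 69.6 and 74.5 CPM in the control, and 49.9 to 52.8, 46.6 to 50.7 and 55.6 to 69.8 CPM in the same order. Both were below the control with hairpins 1 and 2, overlapped it with hairpin 3, and lost the call of their mean change (-0.39 and -0.36) with the length covariate and on the log2(TPM + 1) scale. HARS2 lies head to head with HARS1 on chromosome 5, with 84 bases between their RefSeq start sites, and the annotated exons of the 2 genes overlap by 437 bases on opposite strands. CARS2, FARS2, WARS2 and PARS2 had mean changes of -0.35, -0.35, -0.24 and -0.21, all called and all lost with the length covariate and on the log2(TPM + 1) scale. The PARS2 call (edgeR's adjusted p = 0.049) was also lost with other size factors and with DESeq2. EARS2, the mitochondrial glutamate enzyme, held 45.3, 41.6 and 41.9 CPM in the control and 38.2 to 51.3 CPM in the knockdown libraries, which surrounded the control. AARS2 (-0.07) and IARS2 (-0.04) had no call in the mean either.

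LARS2, NARS2 and RARS2, all mitochondrial, were the members called against the control in opposite directions with different hairpins. Of all tested genes 5.7% were called in opposite directions with hairpins 2 and 1, and 5.96% with hairpins 2 and 3. LARS2 (chr3:45388506-45549421, plus strand) held 56.5, 57.8 and 53.4 CPM in the control, 67.5 to 68.5 with hairpin 1, 48.9, 46.6 and 43.7 with hairpin 2, and 67.3 to 72.8 with hairpin 3. It lay above the control with hairpins 1 and 3 and below it with hairpin 2, at log2 fold changes of 0.28, -0.27 and 0.31. NARS2 (chr11:78435961-78574874, minus strand) held 46.7, 42.9 and 41.9 CPM in the control, 51.0, 49.1 and 49.8 with hairpin 1, 32.4, 32.4 and 34.0 with hairpin 2, and 56.0, 48.0 and 49.8 with hairpin 3. Its log2 fold changes were 0.19, -0.41 and 0.23, with no overlap between any hairpin and the control. RARS2 (chr6:87514378-87590003, minus strand) moved the opposite way, with 50.3, 47.4 and 48.9 CPM in the control, 37.1, 31.9 and 39 with hairpin 1, 61.9, 55.7 and 54.9 with hairpin 2, and 34.8, 37.4 and 38.6 with hairpin 3. Its log2 fold changes were -0.44, 0.23 and -0.40, and the groups did not overlap. On the log2(TPM + 1) scale the hairpin 2 changes of LARS2 and NARS2 were 0.33 and 0.32, where the median of all tested genes was 0.33. For these genes the opposite direction against the control depends on the scale, and on this one they lay near the median gene.

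The hairpins were also compared with each other, without the control. Hairpin 2 against hairpin 1 gave 14 members lower and 5 higher (19 of 39), beside 29.4% and 28.2% of all tested genes (57.6%). EEF1E1 (-1.0) and YARS1 (-0.96) were lower, AARS1 (0.84) and RARS2 (0.68) higher. Hairpin 3 against hairpin 2 gave 4 lower and 21 higher, beside 31.9% and 33.4% of all genes (65.3%), with YARS1 at 1.28, EEF1E1 at 1.12 and AARS1 at -0.80. Hairpin 3 against hairpin 1 gave 0 lower and 4 higher, beside 4.7% and 4.75% (9.45%). The 4 were HARS1 (0.32), RARS1 (0.20), SARS1 (0.38) and YARS1 (0.31), all cytosolic. That count ranged from 0 to 16 when 1 library was left out. It was 10 without control library 1, 16 without hairpin 3 library 1, and 26 without both, so it rests on these libraries. The calls over all genes rose as well. Without control library 1, 1291 genes were lower and 1339 higher of 12997. Without hairpin 3 library 1 these were 2731 and 2536 of 13000, and without both 3751 and 3664 of 12983.

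Levels of different genes were compared in TPM, which is scaled to transcript length. In the control the order ran from GARS1 (418 TPM), SARS1 (405), YARS1 (347), CARS1 (278) and AARS1 (258) down to MARS2 (8.36), PARS2 (7.95) and TARS3 (3.09). IARS2, at 103 TPM, was the highest mitochondrial gene and stood between FARSA (127) and RARS1 (101). The 20 cytosolic genes summed to 4240, 3780 and 3624 TPM in the control. They summed to 2661, 2718 and 2705 with hairpin 1, to 2742, 2720 and 2809 with hairpin 2, and to 2733, 2490 and 2439 with hairpin 3, so every knockdown library was lower. The 16 mitochondrial genes summed to 606, 522 and 494 TPM in the control, 607, 632 and 618 with hairpin 1, 605, 596 and 616 with hairpin 2, and 627, 534 and 522 with hairpin 3. The mitochondrial sums of hairpin 1 were all above the control, the lowest only just, and those of hairpins 2 and 3 overlapped it. The group means were 541 TPM in the control and 619, 606 and 561 TPM with hairpins 1, 2 and 3. In this unit no group was below the control range, whereas the count test called 8 and 9 of these genes lower with hairpins 1 and 2.

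The ratio of the cytosolic to the mitochondrial sum is taken within a library, so that the scaling of whole libraries drops out. It was 7.0, 7.24 and 7.33 in the control, 4.38, 4.30 and 4.38 with hairpin 1, 4.53, 4.57 and 4.56 with hairpin 2, and 4.36, 4.66 and 4.67 with hairpin 3. The means were 7.19 ± 0.174, 4.36 ± 0.0459, 4.55 ± 0.0191 and 4.57 ± 0.177 (SD, n = 3). All 9 knockdown ratios were far below the 3 control ratios, and those of the 3 hairpins lay side by side. The 2 classes have similar median transcript lengths, 2331 and 2274 bases, but the part of length in the ratio was not tested. In the control and with hairpin 3 the ratio was lowest in library 1, the library that stood apart in length slope. No p is given for the ratio, since the members were chosen with results known.

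**Figure D3:**
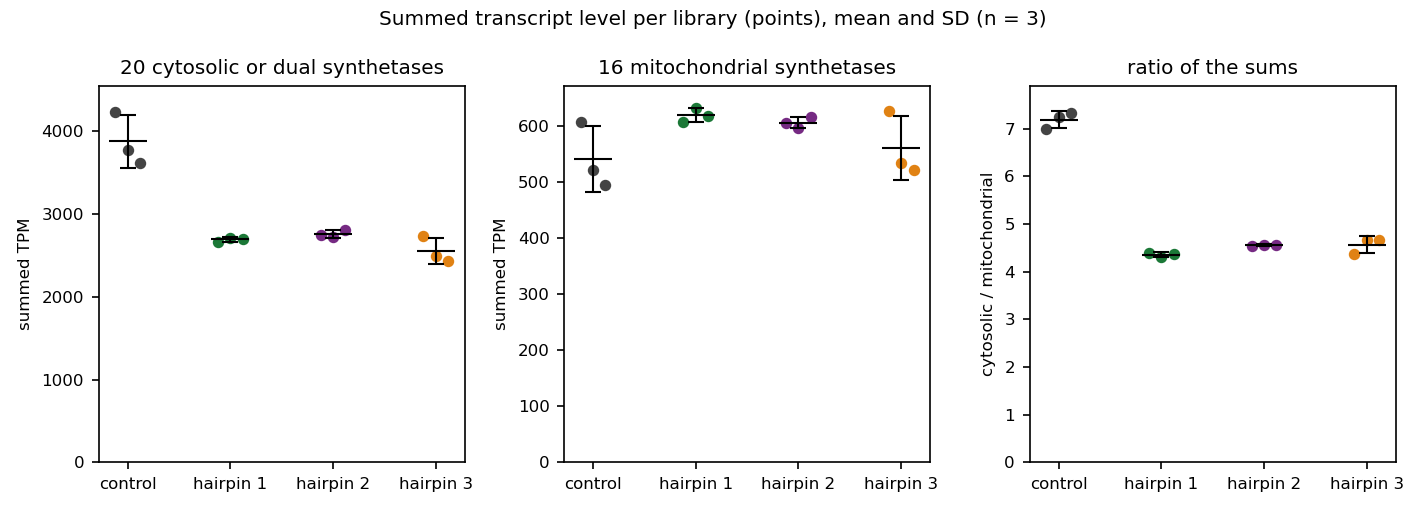
Summed TPM of the 20 cytosolic or dual genes (left), of the 16 mitochondrial genes (middle) and their ratio (right) on the y axes, all from 0, by group on the x axis. Points are libraries, and lines and bars are mean and SD (n = 3). The ratio is 7.0 to 7.33 in the control and 4.30 to 4.67 in the knockdown libraries.

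For 16 pairs, a cytosolic gene could be set beside the mitochondrial gene for the same amino acid (EPRS1 is in both the glutamate and the proline pair). The cytosolic log2 fold change was lower than its partner's in 12 pairs in the mean of the hairpins, and in 13, 13 and 15 with hairpins 1, 2 and 3. The gap was over 1 log2 unit in 4 pairs, those for methionine (-1.97), cysteine (-1.82), tyrosine (-1.51) and tryptophan (-1.02). The gap went the other way for histidine (0.02), phenylalanine (0.09), leucine (0.18) and arginine (0.41). The TPM ratio of the pair in all 9 knockdown libraries was below all 3 control libraries in 10 pairs and above them in 0. The glutamate and proline pairs, which share EPRS1, are both among the 10. No such share was counted for other gene pairs. Of single tested genes, 14.9% lay below the control in this way and 12.5% above it, in CPM. CARS1 over CARS2 was 3.91 to 4.42 in the control and 1.00 to 1.3 in the knockdown libraries. MARS1 over MARS2 went from 15.2 to 23.2 in the control to 4.22 to 6.39, with both genes moving.

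**Figure D4:**
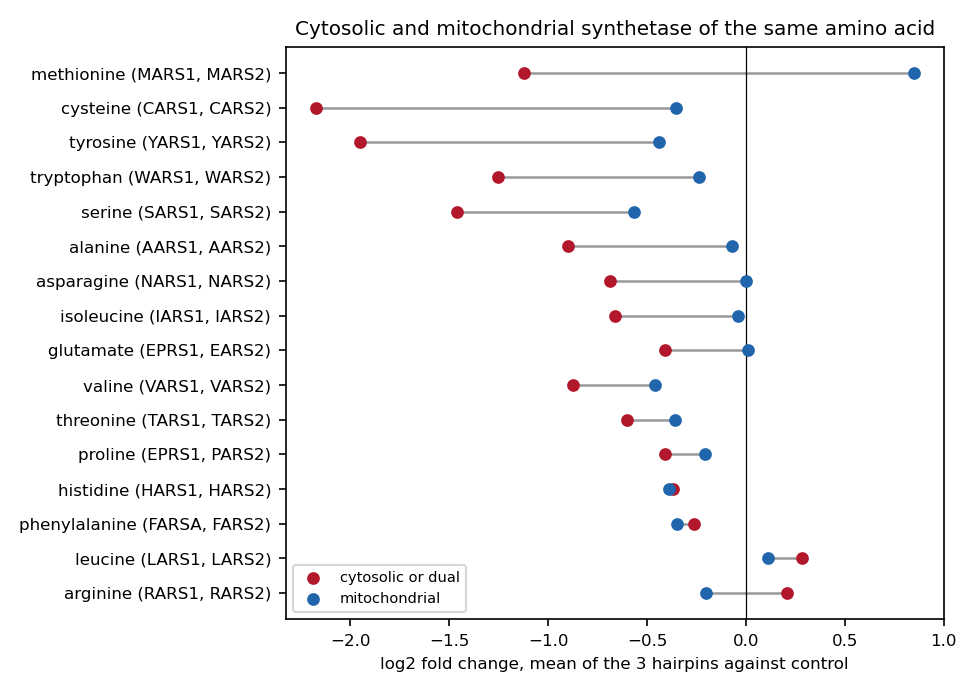
Log2 fold change of the mean of the 3 hairpins against the control (x axis) for the cytosolic and the mitochondrial gene of each amino acid (y axis), joined by a line and ordered by the gap. The methionine pair is widest, with MARS1 at -1.12 and MARS2 at 0.85, and the arginine pair is reversed, with RARS1 at 0.21 and RARS2 at -0.20.

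Neighbouring parts of translation and of the amino acid response were described by lists, with counts in the mean of the hairpins, where 35.8% of all tested genes were lower and 33.7% higher. Of 18 tested genes for tRNA export, amidotransfer, editing and related steps, 5 were lower and 4 higher, with a median of -0.13. DTD1, a deacylase that clears D-amino acids from tRNA, changed by -1.15, XPOT, the tRNA exporter, by -0.92, AARSD1, an editing protein, by -0.52, and GATC, a subunit of the mitochondrial amidotransferase, by 0.42. The 7 cytosolic elongation factors had 6 lower and 0 higher, with a median of -0.63. EEF2, the translocase, changed by -0.59, EIF5A by -0.87, and EEF1B2 and EEF1D, exchange factors of the tRNA carrier EEF1A, by -0.66 and -0.70. The 10 mitochondrial translation factors had 5 lower and 0 higher, with a median of -0.21. MTIF2 and TUFM, the mitochondrial initiation and elongation factors, changed by -0.32 and -0.56, TSFM by -0.40 and MTRFR by -0.55. Of 28 tested ATF4 program genes outside the synthetases, 26 were lower and 1 higher, with a median of -1.50. TRIB3 (-4.25), SESN2 (-3.16), ASNS, the asparagine synthetase (-3.08), and SLC7A5, an amino acid transporter (-2.02), had the smallest adjusted p in that list, and ATF4 itself changed by -1.41. XPOT belongs to this list as well.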

How the data were processed

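Gene expression was measured by bulk RNA-seq in 12 libraries of SNU638, grouped by sample title. Per the labels' protocols, poly(A) RNA was fragmented and random primed, and no step that marks the strand is named. HISAT, Bowtie2, RSEM, DESeq2 and GRCh38.p13 are named per the submitters' processing notes; their role, order and version: not given in the sources used here. Per gene and library the authors deposited expected counts, FPKM and TPM, per the file headers; the deposited FPKM is scaled to length and depth, and the deposited TPM is scaled to length and to 1 total per library. The 15 columns that hold averages over groups were left aside.

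Expected counts were rounded and tested with edgeR 4.0.16 (R 4.3.3): expression filter on the 4 groups, TMM, quasi-likelihood fit of 1 factor to all 12 libraries (8 residual degrees of freedom, common biological coefficient of variation 0.111), two-sided, Benjamini-Hochberg over 12868 genes, called under 0.05. On simulated counts for hairpin 1 against the control over 12868 genes, 94% of 2-fold changes were recovered. SE is the absolute log2 fold change divided by the square root of the F statistic. The mean of the hairpins leaves out the spread between hairpins. Transcript length was taken from the ratio of deposited count to FPKM. Positions came from GENCODE v29 (39 members matched by Entrez identifier), promoter sequences from RefSeq (GRCh38.p14).

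The members, lists and rules were chosen with earlier results of these data known. Each member was named. Values per library were given for the scaffold genes, the 8 cytosolic genes with the largest and 4 with the smallest mean change, 6 and 2 mitochondrial ones likewise, and those called in opposite directions. LARS1 was added after its values were seen. Of each other list 4 genes with the smallest adjusted p were named, and DDIT3 and ATF4 were named beyond that rule. Values per library are TMM-scaled CPM, the unit of the test, in place of the TPM first planned. TPM served to compare genes. The replicate numbers were checked for pairing by the correlation of deviations from group means. All 3 same-numbered pairs of control and hairpin 3 libraries were over 0.1 (0.728, 0.170 and 0.600), and no other 2 groups met that rule. Pairs of different number also passed 0.1, with 0.391 for control library 3 and hairpin 3 library 2. Control library 2 and hairpin 3 library 3 gave 0.230, and the rest were between -0.667 and -0.267. Since library 1 stood apart in both groups, the check cannot show that the numbers pair them. Alternatives were other size factors, no filter, DESeq2 1.42.0, limma 3.58.1 on log2(TPM + 1), the length slope as covariate, a replicate block, a threshold of 0.01, each library left out and, added after seeing the data, both libraries that stood apart left out and a replicate block in the control and hairpin 3 libraries alone.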

Additional observations from a re-analysis of the deposited data

Results flagged for a closer look

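For 3 mitochondrial synthetases, called in opposite directions against the control, the difference between the hairpins was called as well (edgeR's quasi-likelihood test over all tested genes). The rule that flagged these genes required both the opposite calls and a called difference. The p-values below therefore describe the genes picked and add no separate support. LARS2 was lower with hairpin 2 than with hairpin 1 by a log2 fold change of -0.55 (adjusted p = 2.38e-05), and higher with hairpin 3 than with hairpin 2 by 0.58 (adjusted p = 1.37e-05). NARS2 gave -0.60 (adjusted p = 3.44e-05) and 0.64 (adjusted p = 1.85e-05) in the same comparisons. RARS2 gave 0.68 (adjusted p = 4.07e-05) and -0.64 (adjusted p = 5.47e-05), the opposite order. No libraries of hairpin 2 overlapped those of hairpin 1 or hairpin 3 for any of the 3 genes. The share of all genes without such overlap was not counted. Of all tested genes 57.6% were called between hairpins 2 and 1 and 65.3% between hairpins 3 and 2. Opposite calls against the control were made for 5.7% (hairpins 2 and 1) and 5.96% (hairpins 2 and 3) of all tested genes. The opposite directions depend on the processing: with hairpin 2 LARS2 was at 0.33 and NARS2 at 0.32 on the log2(TPM + 1) scale, and NARS2 with hairpin 1 was at -0.015 with the length covariate. The median of all tested genes with hairpin 2 on the log2(TPM + 1) scale was 0.33. The cause was not tested.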

How the results depend on the processing

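Across the alternatives, results for single members (172 in all) that were called in the main fit or in the alternative kept their direction, except the 31 values given here. Changes of sign without a call in either fit were not counted. The log2(TPM + 1) scale moved the median of all tested genes to 0.29, 0.33, 0.12 and 0.25 (hairpins 1, 2, 3 and mean). Between hairpins 3 and 1 that median was -0.19. The values on that scale below are to be read beside these medians. On the log2(TPM + 1) scale the changes became 0.090 for AARS1 with hairpin 2; 0.18 for FARSA with hairpin 1 and 0.064 in the mean; 0.0011 for FARSB in the mean; 0.13, 0.045 and 0.048 for QARS1 with hairpin 1, hairpin 2 and in the mean; and -0.017 for RARS1 between hairpins 3 and 1. On that scale they became, with hairpin 2, 0.27 for CARS2, 0.38 for IARS2, 0.33 for LARS2, 0.32 for NARS2, 0.25 for PARS2 and 0.073 for WARS2, with hairpin 1, 0.017 for FARS2, 0.00015 for HARS2, 0.038 for YARS2 and 0.077 for EEF1E1, and in the mean, 0.29 for IARS2, 0.11 for PARS2, 0.10 for RARS2 and 0.071 for WARS2. With the length slope covariate FARSA became 0.24, 0.079 and 0.13 (hairpin 1, hairpin 2, mean), FARS2 0.0056, IARS2 -0.23 and NARS2 -0.015 with hairpin 1, and EARS2 -0.20, NARS2 -0.19 and PARS2 0.0044 in the mean. The cause was not tested. Counts moved as follows. Mitochondrial genes lower numbered 1, 5, 1 and 2 (hairpins 1, 2, 3 and mean) on the log2(TPM + 1) scale and 3 (hairpin 1), 5 (hairpin 3) and 5 (mean) with the length covariate; hairpin 3 gave 5 without both libraries that stood apart, and 6 without control library 1. Cytosolic genes lower with hairpin 2 numbered 11 on the log2(TPM + 1) scale. Members higher numbered 11, 8, 3 and 7 on that scale, 2 with the length covariate for hairpin 2 and the mean, and, for hairpin 1, 3 without the expression filter and 3 at a threshold of 0.01, which also gave 3 for hairpin 3. Of all 12868 genes 6462, 6814, 3219 and 6696 were higher on the log2(TPM + 1) scale. With the length covariate 3536 (hairpin 2) and 2931 (mean) were higher. Between hairpins 2 and 1 the length covariate gave 30 members called, beside 4968 lower and 4686 higher of all 12868 genes. Between hairpins 3 and 1 there were 2 without the filter, 8 with DESeq2, 1 on the log2(TPM + 1) scale, 10 with the length covariate, 26 without both libraries and 0 at 0.01. Over all genes, lower and higher calls numbered 470 and 485 without the filter and 900 and 1071 with DESeq2. They numbered 1332 and 242 on the log2(TPM + 1) scale and 1696 and 1819 with the length covariate. With 1 library left out, cytosolic genes lower numbered 15 to 16, 17 to 17, 12 to 15 and 15 to 17 (hairpins 1, 2, 3 and mean), mitochondrial genes lower 7 to 10, 9 to 10, 2 to 6 and 7 to 10, members higher 3 to 6, 3 to 4, 3 to 6 and 3 to 4, and members called between hairpins 17 to 22 (2 and 1), 0 to 16 (3 and 1) and 21 to 27 (3 and 2). Of all genes 26.1 to 34.7%, 34.9 to 39%, 19.1 to 27.8% and 30.2 to 36.7% were then lower. Those higher numbered 3339 to 4502, 4341 to 4958, 2163 to 3793 and 3574 to 4658, of 12973 to 13000 tested. Hairpins 2 and 1 gave 3215 to 4127 genes lower and 3207 to 4176 higher. Hairpins 3 and 1 gave 135 to 2731 and 100 to 2536, and hairpins 3 and 2 gave 3649 to 4537 and 3729 to 4552. The ratio of the class sums ranged from 7.12 to 7.29, 4.34 to 4.38, 4.55 to 4.56 and 4.51 to 4.67 (control, hairpins 1, 2, 3), and was 7.91, 5.18, 5.35 and 5.31 without GARS1 and IARS2, the most abundant of each class. In the mean contrast 12 cytosolic genes kept a lower call under every alternative, and RARS1, MARS2, AIMP2 and EEF1E1 kept theirs. Same-numbered libraries correlated over 0.1 in 3 of 18 pairs (-0.247 to 0.728), all 3 between the control and hairpin 3. With a replicate block over all 12 libraries cytosolic genes lower numbered 15, 17, 13 and 17, the calls of QARS1 with hairpin 3, RARS1 between hairpins 3 and 1 and PARS2 in the mean were lost, and no count moved by more than 1.5 times. With the block in the control and hairpin 3 libraries alone, added after seeing the data, 16 cytosolic and 8 mitochondrial genes were lower and 7 members higher. Of all 12868 genes 4459 were lower and 4509 higher in that fit. Members with few counts, TARS3 and PARS2 among them, have the largest errors.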
